A study of Danio rerio with 2 samples.

Results

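The ferritin heavy chain-like genes *fthl27*, *fthl28* and *fthl31* and the metallothionein gene *mt2*, which store or buffer metal, were followed in single cells of the zebrafish islet, 4 of the 24900 genes in the count tables. They were chosen by name because their level was higher in *gcgr*-/- than in control cells, and levels were to be read by genotype, by the leading hormone of the cell, by library and against each other. The genotype difference, in every kind of cell, is therefore a description and carries no test. With 1 sample per genotype there was also no replicate, so that no p value could be given.

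The control sample was *Tg(gcga:GFP)*, labelled wild type, and the other was *gcgr*-/-;*Tg(gcga:GFP)*, a double mutant in which both zebrafish glucagon receptor genes, *gcgra* and *gcgrb*, are disrupted. Both carried the transgene, in which the promoter of the proglucagon gene *gcga* drives green fluorescent protein, and both were collected at 7 dpf (days post fertilization). Islets were picked by hand, and GFP-positive cells were sorted into plates and sequenced with a modified Smart-seq2 protocol that reads the 3' end of polyadenylated RNA. The sources used here do not say how many larvae gave the islets, nor that the cells came from separate pools.

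Ferritin is a hollow protein shell in which cells store iron, and its heavy chain carries the ferroxidase that oxidizes iron before it is stored. Metallothioneins are small, cysteine-rich proteins that bind zinc and copper. In mammals, ferritin protein is adjusted to iron mainly by control of its translation, while metallothionein genes are switched on by metals through the transcription factor MTF1. Insulin-producing cells pack zinc into secretory granules.

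Of the sequenced cells, 156 of 192 control and 288 of 384 *gcgr*-/- cells passed a limit of at least 500 genes with a count and no more than 10% of counts from mitochondrial genes. They held 4760583 and 10283390 counts, with 3834 to 162322 counts per control cell (median 22042) and 2231 to 286288 per *gcgr*-/- cell (median 25522). Each cell was placed by its leading hormone transcript, when this took at least 1% of its counts. Both samples are labelled alpha cells, yet only 3 control cells were led by glucagon transcripts (*gcga* or *gcgb*), against 106 *gcgr*-/- cells. Cells led by the insulin gene *ins* numbered 41 and 54, those led by the somatostatin gene *sst1.1* 36 and 52, and those led by *sst1.2* 29 and 29. Cells led by *sst2*, *gip* or *ghrl* numbered 16 and 20, and 31 and 27 cells had no leading hormone. The mixed class differed in make-up, with 6 *sst2*-led, 7 *gip*-led and 3 *ghrl*-led control cells against 6, 2 and 12 *gcgr*-/- cells. The disrupted genes gave no check of the labels, since *gcgra* was counted 13 times, in 2 cells, in control and 23 times, in 3 cells, in the mutant, and *gcgrb* once in each. Cell names share prefixes that divide the cells into 8 control and 16 *gcgr*-/- sets of 24 sequenced cells each, with 18 to 21 and 14 to 23 cells left after filtering. The sources used here do not say what the prefixes mark, and the sets are called libraries in what follows for brevity. Each of the 276 pairs of libraries shared either all 24 or none of their cell barcodes, while all 576 cell names were distinct. No library held both genotypes, and library and genotype cannot be told apart. The heat shock gene *hsp70.1*, which cells switch on under stress, was 17270 CPM in control against 3684 CPM in the mutant, 4.69-fold lower, and was lower in all 6 kinds, from 14119 and 7017 CPM with no leading hormone to 22188 and 720 CPM in *sst1.2*-led cells. The part of that difference in the results that follow was not tested.

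*fthl27* was the most abundant of the ferritin heavy chain-like genes in CPM, counts per 1000000 counts of the cell or of the summed cells, a level that is not corrected for gene length. Over the control cells its level ran from 0 to 41032 CPM per cell with a median of 1934, and over the *gcgr*-/- cells from 0 to 153072 CPM with a median of 10187. A count was found in 89.7% of control and 98.96% of *gcgr*-/- cells. The ranges overlapped, but 146 of 288 *gcgr*-/- cells were at 10000 CPM or more, against 9 of 156 control cells. Counts summed over the cells of a sample gave 3308 CPM (95% interval 3257 to 3361) in control against 19941 CPM (19855 to 20027) in the mutant, which is a ratio of 6.03 (5.93 to 6.13). These and all further intervals cover counting error only. Reads were amplified by PCR and no collapsing of copies is stated, so the intervals are too narrow, and they say nothing of the spread between animals.

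*fthl31*, which lies near *fthl27* in the genome with other ferritin genes between them, was lower in both samples and differed in the same direction. It ran from 0 to 2922 CPM per control cell (median 64.5) and from 0 to 36685 CPM per *gcgr*-/- cell (median 695), with most of the *gcgr*-/- cells above the control median. The summed level was 175 CPM (164 to 188) in control against 1567 CPM (1542 to 1591) in the mutant, and their ratio 8.93 (8.33 to 9.59). A count was found in 59.0% of control (50.8 to 66.8) and 89.6% of *gcgr*-/- cells (85.5 to 92.9). When each cell was thinned to 5000 counts, for which 1 control cell and 3 mutant cells were too shallow, the shares were 35.5% and 79.6%.

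*fthl28* was sparse. Its median was 0 CPM in both samples, the highest control cell had 18039 CPM and the highest *gcgr*-/- cell 36674 CPM, and a count was found in 19.2% of control (13.4 to 26.3) and 39.2% of *gcgr*-/- cells (33.6 to 45.1). Thinned to 5000 counts, the shares were 5.16% and 21.4%. The summed level was 67.2 CPM (60.1 to 75) and 405 CPM (392 to 417), and their ratio 6.02 (5.37 to 6.77). A single cell held 44.4% of the control counts and another 21.8% of the *gcgr*-/- counts. Without library B2_2, which holds the former, the ratio was 10.0, and without the cells whose names begin with E it was 3.06. The mean of the CPM of single cells gave a ratio of 2.60, and cells with at least 10000 counts gave 10.7, so the size of this difference is loosely fixed by the data.

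*mt2* was detected in 202 of 288 *gcgr*-/- cells against 50 of 156 control cells, which became 57.9% against 20% with thinning to 5000 counts. It ran from 0 to 2637 CPM per control cell with a median of 0, and from 0 to 9237 CPM per *gcgr*-/- cell with a median of 307. The summed level was 118 CPM (108 to 128) in control against 973 CPM (954 to 992) in the mutant, and their ratio 8.26 (7.58 to 9.01). The single cell with the most *mt2* counts held 12.1% and 7.16% of the counts of its sample, so that, unlike *fthl28*, *mt2* was not carried by a few cells.

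All 4 ratios were above 2. A ratio of at least 2 was found for 25.9% of the 6678 genes with at least 10 counts over both samples and 10 CPM in the higher one, and 25.4% of them were at least 2-fold lower. Among those genes 420 had a larger ratio than *fthl31*, 442 than *mt2*, 578 than *fthl27* and 579 than *fthl28*. The median gene differed by a log2 ratio of -0.02.

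**Figure D1:**
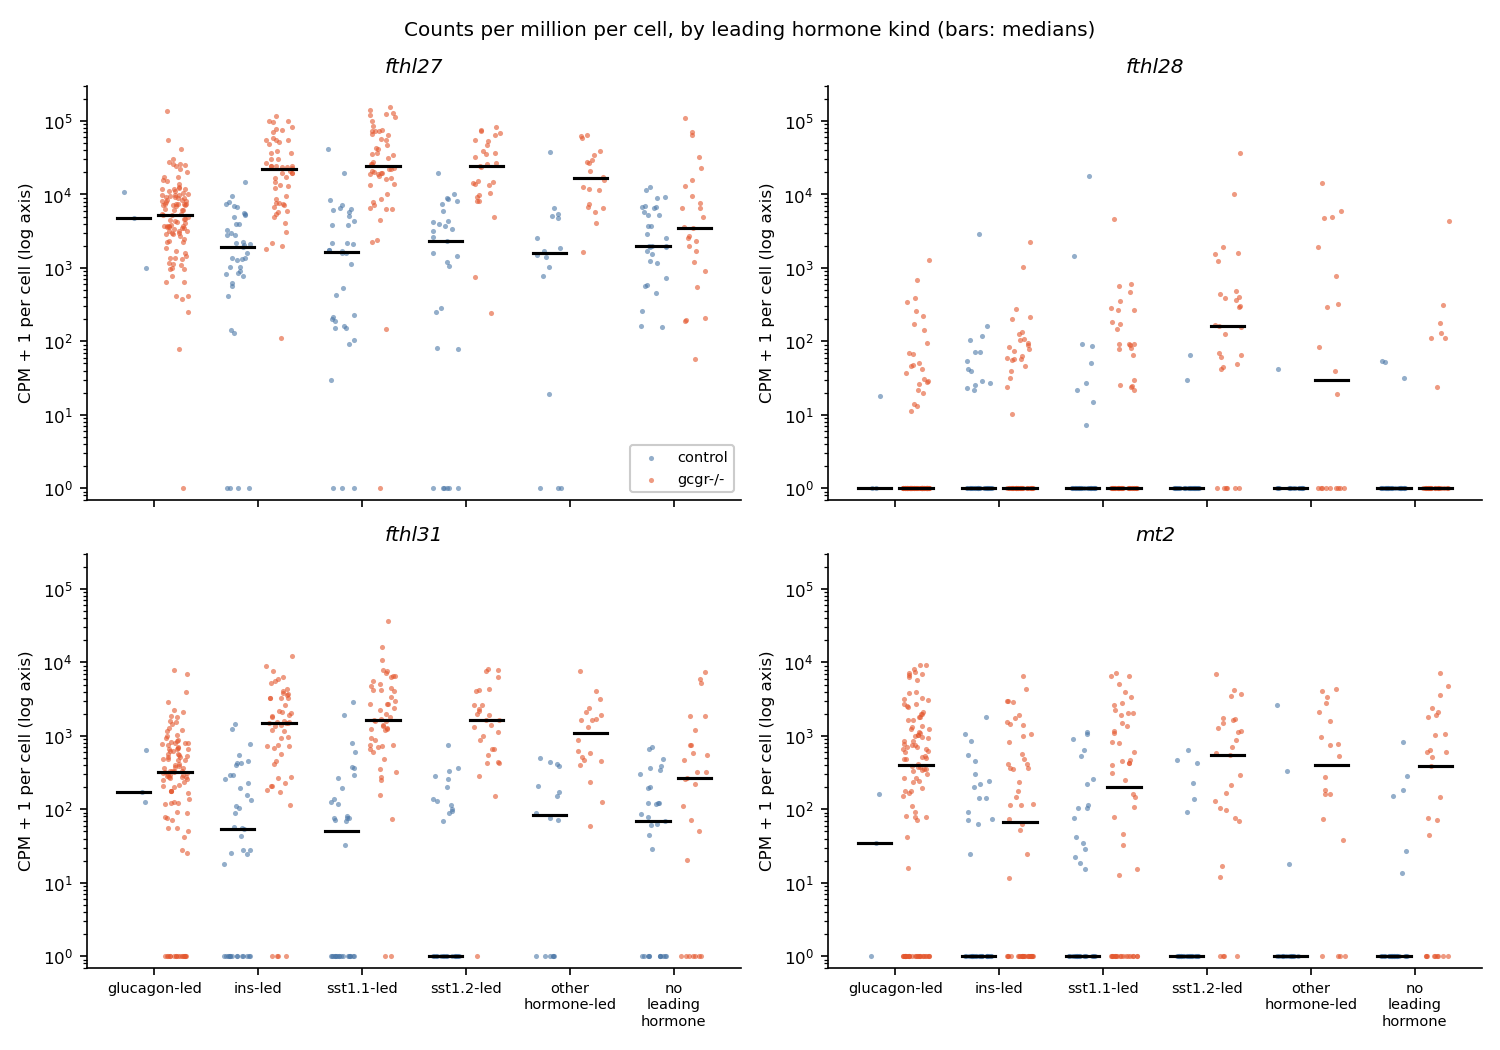
Level of each member per cell as CPM + 1 on a log axis, by leading hormone kind, with control cells in blue, *gcgr*-/- cells in orange and black bars at the medians. In the *ins*-led, *sst1.1*-led and *sst1.2*-led cells the medians of *fthl27* and *fthl31* are far higher in *gcgr*-/- cells. *fthl28* is at 0 in most cells other than *sst1.2*-led and other hormone-led *gcgr*-/- cells, 23 of 29 and 11 of 20 of which have a count. Over all kinds the *mt2* medians of *gcgr*-/- cells lie between 67.0 and 543 CPM.

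Within the kinds, *fthl27* was higher in *gcgr*-/- cells in all 6, and by more than 2-fold in 5. A ratio of at least 2 was found for 19.7% of genes in glucagon-led, 34.6% in *ins*-led, 42.3% in *sst1.1*-led, 38% in *sst1.2*-led, 42.1% in other hormone-led cells and 44.1% in cells with no leading hormone. The *ins*-led cells, which the authors' filtered tables leave out but for 1 cell, had per-cell medians of 1950 CPM in control and 21895 CPM in the mutant, with overlapping ranges of 0 to 14667 and 110 to 115341 CPM. The summed levels were 3361 and 30709 CPM, a ratio of 9.14 (8.87 to 9.41). In *sst1.1*-led cells the medians were 1642 and 24447 CPM and the ratio of the summed levels was 13.1 (12.7 to 13.6), the largest of the 6. The ratio was 7.21 (6.84 to 7.59) in *sst1.2*-led cells and 9.24 (8.76 to 9.75) in cells led by another hormone. It was 4.58 or 11.6 in *sst1.2*-led cells when the control cells with names in A or in B were left out, and 5.32 in cells led by another hormone as the mean of per-cell CPM. The last class holds mostly *ghrl*-led cells in the mutant and mostly *gip*-led and *sst2*-led cells in control, and the part of this in its ratios was not tested. The ratio was smallest in glucagon-led cells, at 1.89 (1.74 to 2.07), and next smallest in cells with no leading hormone, at 2.5 (2.41 to 2.6), or 3.82 when per-cell CPM were averaged and 1.963, under 2-fold, in cells with at least 10000 counts. The glucagon-led value rests on 3 control cells, with 996, 4798 and 10917 CPM, and the 106 *gcgr*-/- cells of that kind ran from 0 to 138940 CPM with a median of 5327. A limit of 5% of counts for the leading hormone moved that ratio to 7.81, while leaving out single libraries or first letters of the cell names gave 1.43 to 2.59.

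The control levels of *fthl27* lay in a narrow range over the kinds, from 2676 CPM in *sst1.1*-led to 4722 CPM in glucagon-led cells, a 1.76-fold range. In *gcgr*-/- cells they ran from 8939 CPM in glucagon-led to 35102 CPM in *sst1.1*-led cells, a 3.93-fold range. Since libraries of the mutant held several kinds at once, the kinds could be set side by side inside a library. *ins*-led cells had more *fthl27* than glucagon-led cells in 15 of 15 such libraries, *sst1.1*-led cells in 13 of 15 and *sst1.2*-led cells in 12 of 14, with median ratios of 4.33, 4.88 and 2.86. Each such comparison rests on 1 to 7 cells of the kind and 2 to 12 glucagon-led cells. These libraries come from 1 sample and are not replicates. With the 8 hormone genes taken out of the totals, *fthl27* was still 3.39 times as high in *ins*-led and 3.55 times as high in *sst1.1*-led as in glucagon-led *gcgr*-/- cells. *gcgr*-/- cells with no leading hormone lay near the glucagon-led cells, at 1.21 times their *fthl27* level (1.18 to 1.24), or 0.947 times without the hormone genes in the totals. Those cells also had 10550 CPM of the 4 alpha cell markers *gcga*, *gcgb*, *arxa* and *pnoca*, against 207 CPM in the control cells with no leading hormone. The control cells of that kind had 22001 CPM of 6 epithelial markers against 1316 CPM in the mutant, and the part of this difference in the ratios of that kind was not tested.

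*fthl31* followed *fthl27* over the kinds. Its ratio was above 2 in all 6 kinds, from 2.99 (2.04 to 4.58) in glucagon-led to 22 (19 to 25.8) in *sst1.1*-led cells. In *sst1.1*-led cells the per-cell median was 49.9 CPM in control against 1662 CPM in *gcgr*-/- cells, and in *ins*-led cells it was 53.3 and 1509 CPM. Control levels ranged 2.39-fold over the kinds and *gcgr*-/- levels 4.27-fold. The glucagon-led ratio of *fthl31* was 4.61 without library B2_1 and 5.51 with a hormone limit of 5%. Within the mutant libraries *fthl31* was higher than in glucagon-led cells in 15 of 15 for *ins*-led, 13 of 15 for *sst1.1*-led and 12 of 14 for *sst1.2*-led cells.

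*mt2* had another pattern over the kinds. Its ratio was also above 2 in all 6. The summed counts gave the highest values, 28.2 (19.6 to 41.8) in cells with no leading hormone and 25.1 (10.7 to 77.3) in glucagon-led cells, where the control had 5 counts. This order depended on the processing. Thinned to 5000 counts the ratio was 6.53 in glucagon-led cells, 24.3 in cells with no leading hormone and 30.5 in *sst1.2*-led cells, which had 8.30 before. Without library B2_1 it was 61.5 with no leading hormone and 52.1 in glucagon-led cells. The lowest ratio of summed counts, 4.87 (4.26 to 5.58), was in *ins*-led cells, and was 3.19 without library F1_1. Leaving out each first letter of the cell names gave 3.18 to 10.5 there, and 42.7% of the *gcgr*-/- counts of that kind came from 1 cell. In cells led by another hormone the ratio of 8.0 rested on few control cells, at 64.7 without library B1_2 and 1.95, under 2-fold, without the control cells with names in A. In *gcgr*-/- cells the summed *mt2* level ranged only 1.41-fold, from 809 CPM in *sst1.1*-led to 1143 CPM in glucagon-led cells. Inside the mutant libraries, *ins*-led cells had more *mt2* than glucagon-led cells in 6 of 15, *sst1.1*-led cells in 6 of 15 and *sst1.2*-led cells in 3 of 14. Control levels ranged 5.27-fold, from 33.6 CPM with no leading hormone to 177 CPM in *ins*-led cells. The former rests on 31 counts, 19 of them in 1 cell. By first letter of the cell names (A and B), the control levels were 12.6 and 65.1 CPM with no leading hormone and 243 and 81.9 CPM in *ins*-led cells, so this range is loosely fixed. The per-cell medians of the mutant were less even than the summed levels, from 67.0 CPM in *ins*-led to 543 CPM in *sst1.2*-led cells.

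*fthl28* was uneven. In *sst1.2*-led cells it had 2 counts in control, in 2 of 29 cells, and 1821 counts in 23 of 29 *gcgr*-/- cells, 4.12 against 1361 CPM and a 330-fold ratio (91.3 to 2730). In cells led by another hormone it had 1 control count and 1549 *gcgr*-/- counts, a ratio of 1167 (209 to 46127). In these kinds 49.9% and 54.9% of the *gcgr*-/- counts came from 1 cell. Leaving out single libraries gave 176 (E1_2), 530 (A1_1) or 565 (A1_2) for *sst1.2*-led cells. For cells led by another hormone it gave 358 (B2_2), 575 (E2_1) or 745 (A2_1), and thinning to 5000 counts gave 46.7. Leaving out each first letter of the cell names gave 87.9 to 448 in *sst1.2*-led and 252 to 1671 in other hormone-led cells. In cells with no leading hormone the ratio was 58.3 (24.6 to 181), with 91.9% of the *gcgr*-/- counts in 1 cell, and 5.15 without library E1_1. A hormone limit of 5% gave 1.34 for that kind, under 2-fold, and a limit of 0.5% gave 162. In *ins*-led cells the ratio was 1.52 (1.23 to 1.88), and 79.3% of the control counts came from 1 cell of library A2_1, without which the ratio was 7.78. In *sst1.1*-led cells it was below 1, at 0.746 (0.597 to 0.931), and 80.7% of the control counts came from 1 cell. That cell is in library B2_2, and without this library the *sst1.1*-led ratio was 3.71, while it was 0.371 without library C2_2.

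**Figure D2:**
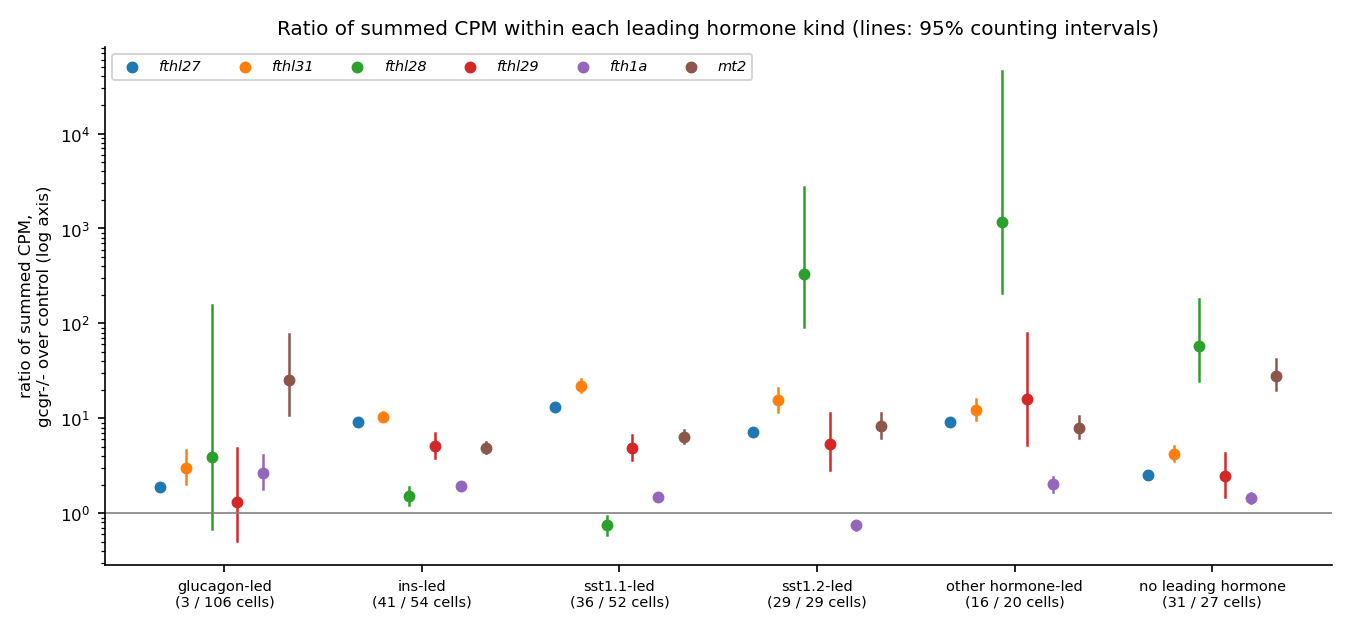
Ratio of summed CPM, *gcgr*-/- over control, on a log axis for 5 ferritin genes and *mt2* within each leading hormone kind, with the numbers of control and *gcgr*-/- cells under each kind and lines for the 95% counting intervals. *fthl27* and *fthl31* are lowest in glucagon-led cells and in cells with no leading hormone, where *mt2* is highest as summed (once thinned it is 6.53 in glucagon-led and 30.5 in *sst1.2*-led cells), and *fth1a* stays between 0.744 and 2.64.

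By library, *fthl27* summed over cells ran from 2093 to 4781 CPM in the 8 control libraries (median 2922) and from 11267 to 34485 CPM in the 16 *gcgr*-/- libraries (median 18453). *fthl31* ran from 81.5 to 330 CPM (median 135) and from 713 to 3347 CPM (median 1402). *mt2* ran from 19.5 to 216 CPM (median 114) and from 597 to 1627 CPM (median 959). For these 3 genes no *gcgr*-/- library overlapped the control libraries, a separation upward that 0.255% of the 6678 genes showed, 17 in number. *fthl28* overlapped, with 2.93 to 276 CPM in control and 37.3 to 1537 CPM in *gcgr*-/- libraries, 7 of which were above the highest control library. Among the other 14 separated genes were *gcga* itself, the autophagy receptor gene *sqstm1* and the stress-induced transcription factor gene *atf3*. The libraries also differed in make-up, with 0 to 5% glucagon-led cells in control and 13.3 to 54.5% in *gcgr*-/- libraries.

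**Figure D3:**
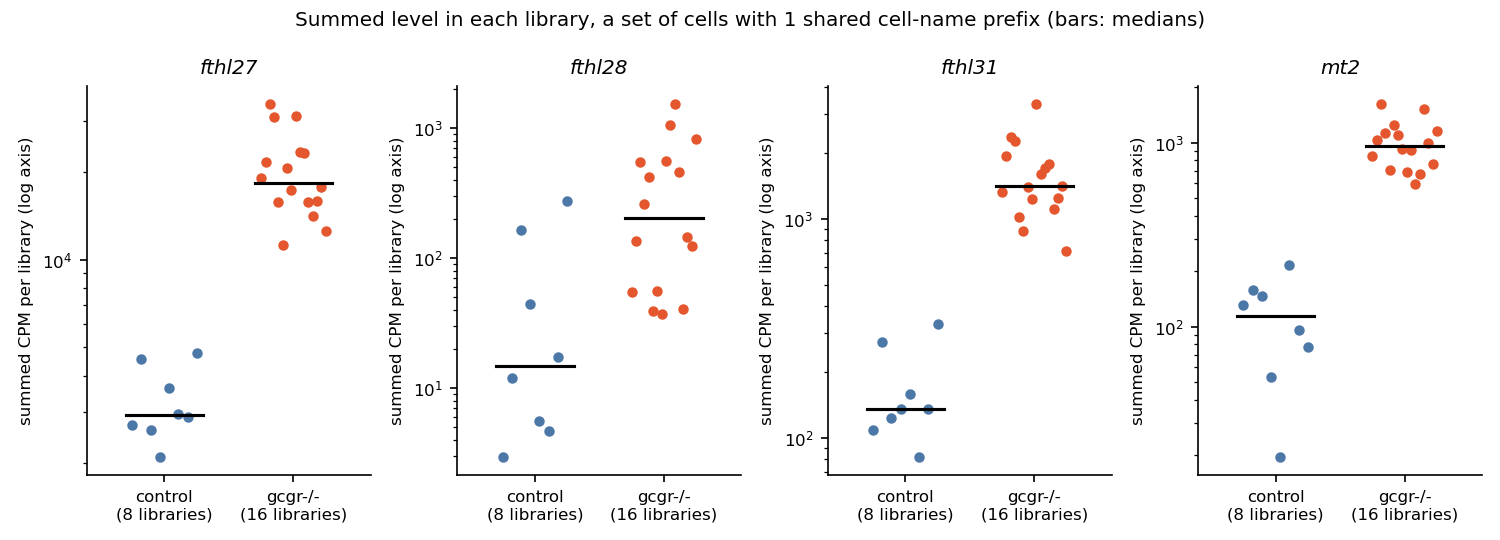
Summed CPM of each member on a log axis in the 8 control and 16 *gcgr*-/- libraries, with bars at the medians. *fthl27*, *fthl31* and *mt2* separate the libraries of the genotypes without overlap, and *fthl28* does not.

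The separation was then looked for inside the kinds, where this make-up is held closer, using the first letter of the cell names (2 letters in control and 4 in *gcgr*-/- cells). For *fthl27* and for *fthl31* the summed CPM of every *gcgr*-/- letter was above that of every control letter in all 5 kinds other than the glucagon-led. With no leading hormone the per-cell medians of the letters overlapped. For *fthl27* they were 902 CPM in the 9 cells of F and 2748 CPM in the 5 cells of D, against 1939 and 2759 CPM in control. For *fthl31* the median was 0 CPM in F, against 43.8 and 100 CPM in control. *mt2* was separated in 4 of these 5 kinds and overlapped in the cells led by another hormone, and *fthl28* was separated in 3. In *sst1.1*-led cells the per-cell *mt2* median was 0 CPM in letter F, as in both control letters, and 38.5 CPM in D. In cells led by another hormone the *fthl28* median was 0 CPM in letters C and D, as in both control letters. With no leading hormone, the *fthl28* separation was between 3 counts in control letter B and 5 counts in *gcgr*-/- letter F. Such a separation upward was found for 5.97% of genes in *ins*-led, 6.95% in *sst1.1*-led, 4.84% in *sst1.2*-led and 3.14% in other hormone-led cells, and for 2.96% in cells with no leading hormone. In *ins*-led cells the highest control letter had 3542 CPM of *fthl27* and the lowest *gcgr*-/- letter 20487 CPM.

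Across cells, *fthl27* and *fthl31* moved together. Spearman's rho was 0.63 over 156 control and 0.93 over 288 *gcgr*-/- cells, and 0.50 and 0.88 after thinning to 5000 counts. Within the kinds of *gcgr*-/- cells it ran from 0.80 in 106 glucagon-led to 0.95 in 52 *sst1.1*-led cells. Cells of a sample share libraries and, in CPM, a fixed total, and these values describe the cells with no test. *fthl28* went with both less closely, with rho of 0.23 and 0.46 for *fthl27* and of 0.37 and 0.50 for *fthl31* in control and *gcgr*-/- cells. On thinned counts its control values were 0.08 and 0.12. *mt2* was only weakly related to the ferritin genes over all cells of a sample, with rho of 0.21 and 0.04 for *fthl27*, 0.13 and 0.01 for *fthl31* and 0.17 and 0.07 for *fthl28*. Within the 29 *sst1.2*-led *gcgr*-/- cells rho was 0.54 between *fthl27* and *mt2*. Between *fthl27* and the total counts of the cell rho was near 0, with values of 0.01 in control and 0.02 in *gcgr*-/- cells.

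**Figure D4:**
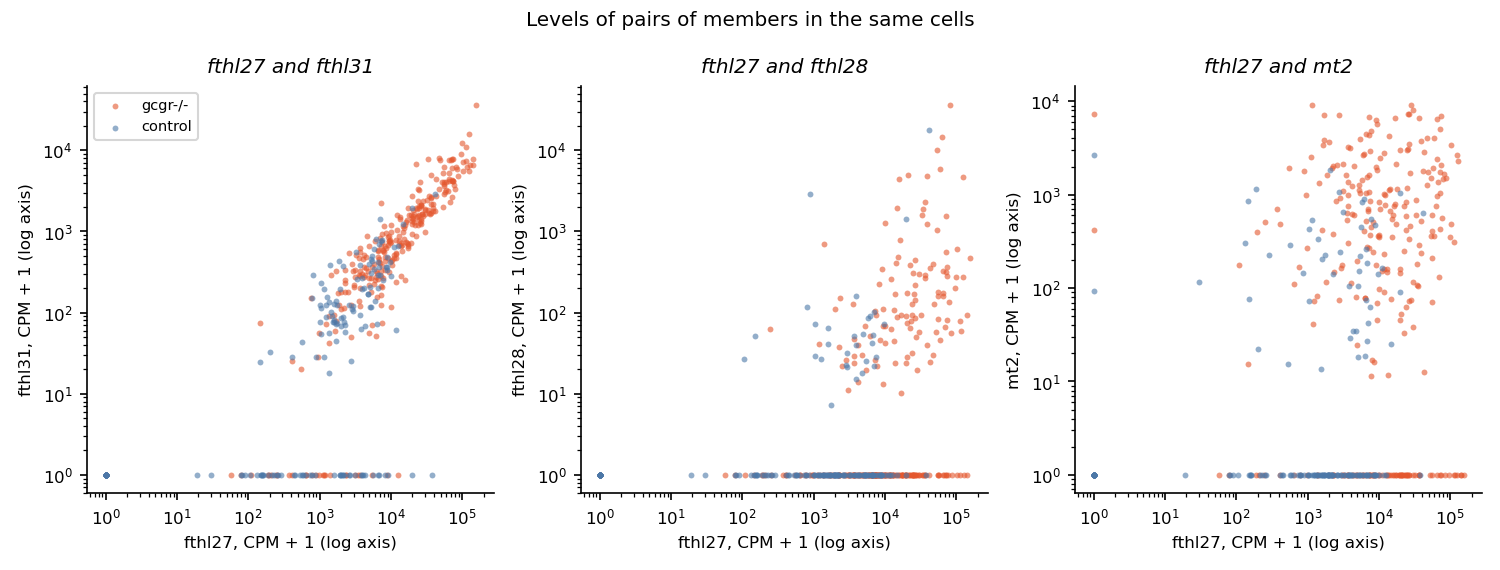
Levels of *fthl27* against *fthl31*, *fthl28* and *mt2* in the same cells, as CPM + 1 on log axes, with control cells in blue and *gcgr*-/- cells in orange. *fthl31* rises with *fthl27* in both genotypes, while *mt2* fills its range at all levels of *fthl27*.

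Dividing the same *gcgr*-/- cells at 10000 CPM of *fthl27* restates these relations as levels and is no separate observation. The 146 cells above had 2753 CPM of *fthl31* and 775 CPM of *fthl28*, and the 142 cells below had 347 and 23.9 CPM. *mt2* was 986 CPM above and 959 CPM below, and *fth1a* 633 and 721 CPM. The cells on either side of that level are not the same mixture of kinds, and kinds differ in both genes.

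*fthl27* and *fthl31* are similar genes whose reads could in part be shared. The counting call in the methods names no option for reads that map to several genes, which featureCounts leaves out by default. As a description of their balance, the share of *fthl31* in the summed counts of both was taken. That share was 5.03% (4.71 to 5.38) in control and 7.28% (7.18 to 7.39) in *gcgr*-/- cells. Over the cells with at least 50 such counts it ran from 0 to 18.8% in 80 control cells (median 3.95%) and from 0 to 23.7% in 242 *gcgr*-/- cells (median 6.27%), a spread 5.27 and 17.9 times that of binomial counting. The share thus varied between cells by more than counting gives, but PCR copies also widen such a spread. The part of shared reads in the levels of the single *fthl* genes was not tested, and those levels are uncertain to that extent.

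In the RefSeq gene table of a newer assembly, *fthl27*, *fthl28*, *fthl30*, *fthl31* and *fthl29* are 5 genes in a row, whereas *fth1a* and *mt2* lie elsewhere. The assembly differs from the GRCz11 build of the counts, and no positions are given for this reason. The remaining genes of the row behaved as follows. *fthl29* had 30.5 CPM in control against 108 CPM in the mutant, with a ratio of 3.55 (2.98 to 4.25), and was above the highest control library in 15 of 16 *gcgr*-/- libraries. *fthl30* had 0 control and 12 *gcgr*-/- counts, at least 1.85-fold higher against a floor of 3 counts over the sample. By contrast, over all cells *fth1a*, the gene of a canonical ferritin heavy chain outside the row, had 505 and 677 CPM, a ratio of 1.34 (1.28 to 1.40), and only 1 of 16 *gcgr*-/- libraries was above the highest control library. Within kinds the contrast did not hold throughout. The *fth1a* ratio was 0.744 in *sst1.2*-led, 1.93 in *ins*-led and 2.01 in other hormone-led cells. In glucagon-led cells it was 2.64, above the 1.89 of *fthl27*, with 24 of 25 control counts of *fth1a* in 1 cell. *fth1a* was also unrelated to *fthl27* across cells, with rho of 0.07 in control and 0.04 in *gcgr*-/- cells, against 0.49 and 0.52 for *fthl29*.

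The genes whose level across cells was most like each member were taken by the smaller rho of both samples, among 859 genes counted in at least 20% of the cells of each sample. For *fthl27* these were *fthl31* (0.63), *fthl29* (0.49), *nfkbiaa* (0.23), *rplp1* (0.19) and *psma6b* (0.19). For *fthl31* they were *fthl27* (0.63), *fthl29* (0.57), *smox* (0.20), *rpl7a* (0.19) and *rps15* (0.18). For *fthl28* they were *fthl29* (0.43), *fthl31* (0.37), *fthl27* (0.23), *epb41a* (0.16) and *ywhaqa* (0.16). Every ferritin member thus had other genes of the row in first place, and after them values fell to 0.23 or less. *mt2* had no close companion, and its 5 were *zgc:65894* (0.17), *hsp90aa1.1* (0.17), *stip1* (0.17), *c2cd4a* (0.16) and *hsp90aa1.2* (0.16). On counts thinned to 5000, 3 of the 5 genes remained for *fthl27* and for *fthl31*, 1 for *fthl28* and 0 for *mt2*, so the weaker companions depend on depth.

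The other genes of iron, zinc and copper metabolism were read from lists by function. Genes that differed at least 2-fold over all cells were counted among those with enough counts, 10 over both samples and 10 CPM in the higher one. Of 5 ferritin genes 4 were higher and none lower, with a median log2 ratio of 2.59 that is set by the members. Over all genes tested, 25.9% were higher and 25.4% lower, which is the background for this and the other lists. Without the members, 1 of 2 was higher. Transferrin carries iron in plasma and its receptor takes it into cells. Of the 12 iron import genes only 2 had enough counts, and both were higher. *tfa*, which encodes transferrin and is mainly a liver gene, had 34 and 1928 counts (7.14 and 187 CPM, a ratio of 26.3), in 2 control and 21 *gcgr*-/- cells, and 55.9% of the *gcgr*-/- counts came from 1 cell. *slc39a14*, a carrier for zinc and non-transferrin iron, had 6.09 and 40.7 CPM, a ratio of 6.69 (4.59 to 10.1), in 5 and 17 cells. The transferrin receptor gene *tfr1b* had 39 control and 0 *gcgr*-/- counts, 29 of them in 1 cell, which is under the 10 CPM needed to be counted. Also under it were *cubn* with 0 and 50 counts, *slc25a37* with 28 and 4, *slc25a28* with 1 and 20 and *slc11a2* with 2 and 11.

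The *tfa* counts lay mainly in *sst1.2*-led cells in both samples, with 33 of the 34 control counts in 1 cell and 1744 of the 1928 *gcgr*-/- counts in 9 of 29 cells. The 6 liver markers, of which *tfa* is 1, had 14.3 CPM in control and 202 CPM in the mutant, with 4 at 0 in control and none in the mutant, and single cells ran up to 1645 and 28353 CPM. In *sst1.2*-led *gcgr*-/- cells *tfa* made up 1744 of their 1746 liver marker counts, and the liver fatty acid binding protein gene *fabp10a* and the apolipoprotein gene *apoa2* were at 0. Macrophages and red blood cells handle much of the iron of the body. The 6 myeloid markers had 1 count in each sample, with *mpeg1.1*, *spi1b*, *lcp1*, *lyz* and *mfap4* at 0 in both, and the 5 erythroid markers were at 4.41 and 4.96 CPM.

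Of 2 iron export and oxidation genes with enough counts, the ferroxidase gene *cp* was higher, with 4 and 136 counts in 2 and 9 cells and a ratio of 15.7 (6.01 to 58.6). Of its *gcgr*-/- counts, 128 lay in 5 glucagon-led cells, a kind with 3 control cells, where the ratio was at least 1.14. *sst1.1*-led cells had 3 and 5 counts of *cp* and *ins*-led cells 1 and 3. The part of cell make-up in the ratio over all cells was not tested. *cp* is also mainly expressed in liver. The other one, *flvcr1*, whose product exports heme in mammals, had 70 and 204 counts. The iron exporter gene *slc40a1* had 0 control and 45 *gcgr*-/- counts in 7 cells, *slc48a1a* 4 and 20 and *flvcr2b* 10 and 21. Of 6 genes of iron regulation and use, 2 were higher and 1 was lower. *aco1*, whose product binds iron-responsive elements in RNA when it lacks its iron-sulfur cluster, had 6.93 and 23.6 CPM (ratio 3.41, 2.36 to 5.06), in 10 control and 40 *gcgr*-/- cells. *isca2*, a gene of iron-sulfur cluster assembly, had 5.46 and 26.4 CPM (ratio 4.83), with 66.8% of the *gcgr*-/- counts in 1 cell. *pcbp2*, whose product in mammals delivers iron to ferritin, had 24.8 and 8.07 CPM, 3.07-fold lower in the mutant. It was found in 14 and 25 cells, with 43.2% of the control counts in 1 cell. Within kinds its ratio was 0.071 in *sst1.1*-led, 0.104 in *sst1.2*-led and at most 0.161 in other hormone-led cells. It was 1.28 in *ins*-led cells and 20.7 with no leading hormone (1 and 15 counts), and glucagon-led cells had 0 and 18 counts. The heme synthesis gene *alas1* was below the limit, with 167 and 312 CPM and a ratio of 1.87 (1.73 to 2.02). *glrx5* (451 and 712 counts) and *hmox2a* (52 and 102) did not reach it either. Among genes with too few counts to be included were the heme synthesis gene *fech* (0 and 52), the ferritin turnover receptor gene *ncoa4* (6 and 52), *ireb2* (12 and 62), *fbxl5* (1 and 14), *nfs1* (24 and 96), *isca1* (42 and 81), *hmox2b* (13 and 31) and *hmox1a* (11 and 13).

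Of the zinc transport genes, 10 had enough counts, of which 2 were higher and 2 lower, with a median log2 ratio of -0.05, shares not far from those over all genes. The higher ones were *slc39a14* and *slc30a5* (11.3 and 44.1 CPM), and the lower ones *slc30a6* (60.7 and 17.2 CPM) and *slc39a6* (25.4 and 8.36 CPM). *slc30a5* and *slc30a6* code in mammals for partners in 1 transporter that loads zinc into the secretory pathway, and over all cells they went in opposite directions. Both were found in few cells, *slc30a5* in 11 and 29 and *slc30a6* in 15 and 19. In *sst1.2*-led cells both were higher, with 0 control counts each and 19 and 33 *gcgr*-/- counts, each in 2 cells. In glucagon-led cells the *slc30a5* ratio was 0.554, with its 15 control counts in 1 cell. In the remaining kinds the directions were opposite. *slc30a8*, which in mammals codes for the zinc transporter of insulin granules, had only 5.67 and 10.4 CPM. *slc30a2* (306 and 937 counts), *slc30a1a* (55 and 103), *slc39a7* (101 and 211), *slc39a9* (73 and 84) and *slc39a13* (78 and 162) did not reach 2-fold. *slc30a9* (7 and 87), *slc30a7* (16 and 80), *slc39a5* (0 and 39), *slc39a3* (21 and 35) and *slc30a4* (4 and 17) had too few counts. The second metallothionein symbol with enough counts, *mtbl*, was not higher, with 200 CPM in control against 137 CPM in the mutant, for a ratio of 0.685 (0.630 to 0.744). *mtf1*, the metal-responsive regulator, had 1 control and 41 *gcgr*-/- counts in 16 cells. None of 4 copper genes with enough counts reached 2-fold in either direction, over all cells, the largest ratio being 1.81 for the copper chaperone gene *cox17*. Within kinds, which differ in number between the samples, *cox17* was higher by 8.04 (4 control counts) in glucagon-led, 3.87 in *ins*-led, 2.73 in *sst1.1*-led, 4.08 in *sst1.2*-led and 6.28 in other hormone-led cells, and its ratio was 0.750 in cells with no leading hormone. Beside this, 19.7% to 44.1% of all genes were at least 2-fold higher within the kinds. The copper gene *atox1* went both ways. Its ratio was 0.281 in glucagon-led, 0.131 in *sst1.2*-led and 0.529 in other hormone-led cells. It was 2.43 in *ins*-led cells, 1.80 in *sst1.1*-led cells and 5.63 with no leading hormone.

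In mammals ferritin heavy chain genes are also targets of Nrf2, the factor that Keap1 holds in check. Of 9 genes of the Keap1-Nrf2 list over all cells, 6 were higher and 0 lower, beside 25.9% and 25.4% of all genes. The 6 were *keap1a* and *keap1b*, the genes of Keap1 itself, and *gclc*, *txnrd3*, *prdx1* and *txn*. Within kinds, 4 of 7 were higher in glucagon-led, 5 of 9 in *ins*-led, 7 of 8 in *sst1.1*-led and 6 of 7 in *sst1.2*-led cells. It was 8 of 10 in other hormone-led cells and 6 of 9 with no leading hormone, beside 19.7% to 44.1% of all genes. The *keap1a* ratio was 1.11 in *ins*-led cells and 3.97 to 29.6 in the other kinds. Of the 144 *gcgr*-/- counts of *keap1b*, 92 lay in 4 *sst1.1*-led cells. The glutathione synthesis gene *gclc* had 11.6 and 143 CPM (ratio 12.4), in 13 and 103 cells. *prdx1* was found in only 2 and 25 cells and *txn* in 4 and 33. *nfe2l2a*, which codes for Nrf2, had 302 and 189 CPM. Within kinds *nfe2l2a* was at least 2-fold lower in glucagon-led (ratio 0.201), *ins*-led (0.468) and *sst1.1*-led cells (0.495). The glucagon-led value rests on 3 control cells, 1 of which held 73 of their 91 counts. In the remaining kinds the ratio was 0.927 in *sst1.2*-led cells, 1.42 in other hormone-led cells and 0.732 with no leading hormone. The genes of these lists other than the members were mostly found in few cells, and no count over a list has a test.

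**Figure D5:**
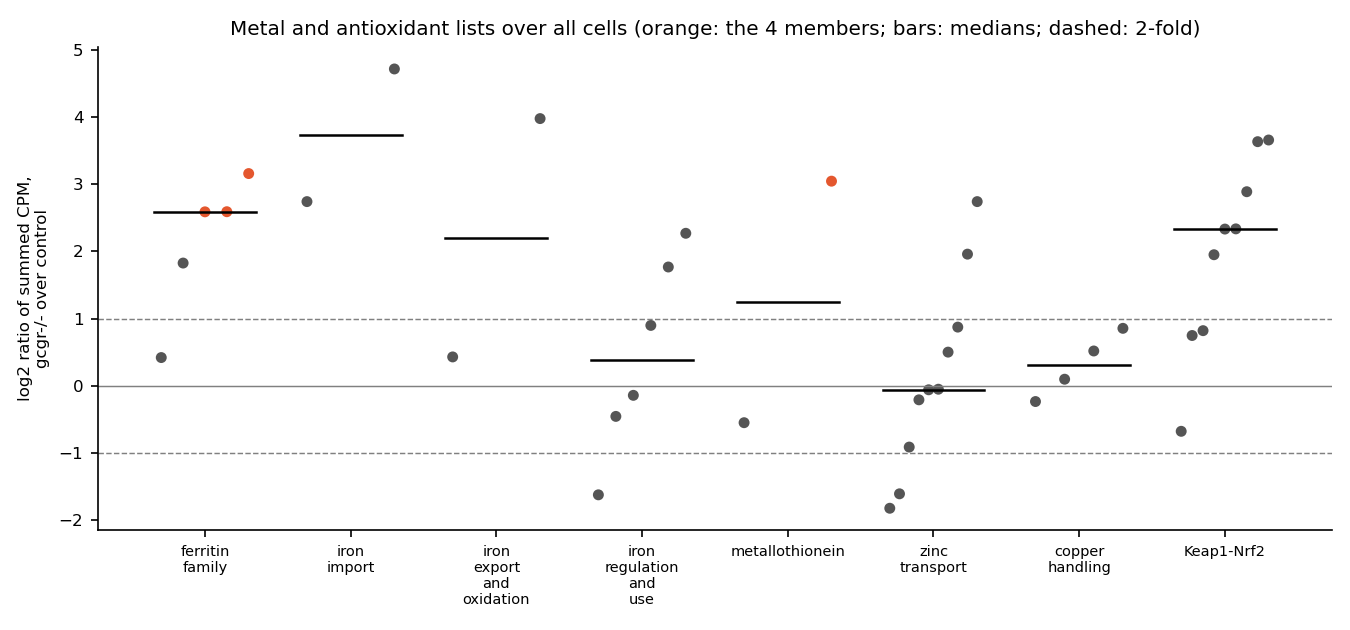
Log2 ratio of summed CPM, *gcgr*-/- over control, over all cells for the genes of each list with enough counts, with the 4 members in orange, bars at the list medians and dashed lines at 2-fold. Over all cells pooled, the medians are -0.05 for the zinc and 0.31 for the copper genes, and 2.59 for the ferritin and 2.33 for the Keap1-Nrf2 genes. Single genes spread widely, the zinc genes from -1.82 (*slc30a6*) to 2.74 (*slc39a14*), and *nfe2l2a* of the Keap1-Nrf2 list is at -0.67.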

How the data were processed

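According to the methods and the submitters' processing notes, poly T was cut from the reads, Trim Galore removed adapters, STAR mapped them to GRCz11 and featureCounts assigned them to coding sequence. Unique molecular identifiers were in the primers, but no collapsing is stated. Per sample, the authors gave 1 table with every sequenced cell, deposited as unnormalized counts of reads. The tables of cells kept by the authors were used only for their cell names. Rows were joined by position, because 17 gene names were spelled differently. The stated counting call names no option for multi-mapping reads or strand, and reads of near-identical or overlapping genes cannot be told apart.

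Cells with fewer than 500 genes counted or more than 10% of counts from mitochondrial genes were left out. Counts were summed over cells and divided by summed totals (CPM). Sums have exact Poisson, ratios exact conditional and shares exact Clopper-Pearson intervals at 95%. A sample at 0 was set at 3 counts. No ratio is given where both are at or under that. With 1 sample per group no test was made. No doublets were called, since cells were sorted into wells. The ratio step was tested on simulated data. Python 3.11.15, numpy 2.4.6, pandas 2.3.3, scipy 1.17.1 and matplotlib 3.10.9 were used.

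The members, gene lists, hormone kinds and alternatives were chosen with earlier results of these data known. Named are the members, the hormone genes, every ferritin, iron and zinc gene of the lists with at least 10 counts over both samples, and the 5 genes most like each member. *mtbl*, *mtf1*, *cox17*, *atox1*, *keap1a*, *keap1b*, *gclc*, *txnrd3*, *prdx1*, *txn*, *nfe2l2a*, *hsp70.1*, *sqstm1* and *atf3* were named after their values were seen. Settings also tried were a mean over per-cell CPM, thinning to 5000 counts, totals without 8 hormone genes, other cell filters and hormone limits, and leaving out the top cell, each library (cells that share a name prefix) or each first letter of the cell names. No sequences are shown, as none were in the reference used here.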

Additional observations from a re-analysis of the deposited data

Results flagged for a closer look

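The *fthl28* ratio in *sst1.1*-led cells, 0.746, was below 1, whereas it was above 1 in each of the other 5 kinds. With 1 sample per genotype, the difference between the kinds was not tested. In that kind 142 of the 176 control counts came from 1 cell of library B2_2, and without the top cell of each sample the ratio was 1.99.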

How the results depend on the processing

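No alternative turned the direction of the ratio over all cells for any of the 4 members. The values depended on the setting as follows. With the mean of per-cell CPM the ratios were 6.34 for *fthl27*, 2.60 for *fthl28*, 9.90 for *fthl31* and 9.25 for *mt2*, and with cells thinned to 5000 counts 6.35, 2.62, 10.8 and 10.6. Totals without the hormone genes gave 6.32 for *fthl27*. All sequenced cells gave 5.88 for *fthl27* and 7.76 for *fthl31*. At least 750 detected genes gave 5.81, 9.89 and 8.26 for *fthl27*, *fthl28* and *fthl31*, and at least 10000 counts gave 10.7 for *fthl28*. Without the top cell of each sample *fthl27* had 6.19 and *fthl28* 8.47. The 88 control and 197 *gcgr*-/- cells of the deposited filtered tables gave 5.01 for *fthl27* and 9.51 for *mt2*. Leaving out each first letter of the cell names or library in turn gave 5.50 to 6.62 for *fthl27*, 3.06 to 10.0 for *fthl28*, 7.83 to 10.3 for *fthl31* and 7.60 to 9.37 for *mt2*. The *fthl28* extremes were letter E (3.06) and library B2_2 (10.0). The causes were not tested beyond the construction of each setting.

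Apart from these ratios over all cells, 8 of 959 values turned, all of them *fthl28* ratios within the kinds. In *ins*-led cells the ratio was 0.844 after thinning and 0.978 without letter B. In *sst1.1*-led cells it was 1.70 with at least 750 genes, 3.85 with at least 10000 counts, 1.99 without the top cells, 1.81 with a hormone limit of 5%, 2.84 without letter B and 3.71 without library B2_2. Leaving out each letter or library gave 0.978 to 7.78 in *ins*-led and 0.333 to 3.71 in *sst1.1*-led cells. In cells with no leading hormone *fthl28* fell from 58.3 to 5.15 without library E1_1. With a hormone limit of 5% it was 1.34, under 2-fold, and with a limit of 0.5% it was 162. *mt2* in cells led by another hormone moved from 8.0 to 64.7 without library B1_2 and to 1.95 without letter A. *fthl27* in cells with no leading hormone was 1.963 with at least 10000 counts. No paired analysis was possible because each genotype has 1 sample and no label pairs them. Depth limits *fthl28* and *mt2* most, since their median control cell had no read.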
